A study of Mus musculus with 22 samples.

Results

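Genes that mark the vessels of the spinal cord were described in RNA sequencing data from 22 mice. The 32 genes used were chosen by symbol from knowledge of endothelial and mural cells, with earlier results of these data known. All 32 were found among the 17306 genes of the table, and all 32 passed the filter on low values that 16765 genes passed (a log2 CPM that reached -1 in at least 5 libraries, where CPM divides reads by the size of the library). They comprised 17 endothelial identity genes, 6 genes of the barrier and its transporters, 6 pericyte genes and 3 smooth muscle genes. Every mouse was wildtype, of strain C57BL6J, aged 12 to 14 weeks at collection, and had knee joint pain from 1 mg of monoiodoacetate (MIA), which blocks glycolysis and injures cartilage. SAFit2, which selectively blocks the co-chaperone FKBP51, was given at 100 mg/kg in a vesicular phospholipid gel (VPG) that releases it slowly, and Vehicle mice received the gel alone. The early groups (5 Early SAFit2 and 6 Early Vehicle mice) received gel on days -3 and 4 relative to MIA according to the methods, although the sample labels read days 3 and 4. The late groups (5 Late SAFit2 and 6 Late Vehicle mice) received it on days 20 and 27, and L4 to L6 spinal cord was taken on day 30, as quadrants on the injected side according to the methods. Early SAFit2 samples are titled SAFit1 but carry the treatment label SAFit2, which was used. Early and late are batch labels, so timing cannot be told apart from batch, whereas each SAFit2 group has its Vehicle group within its batch. No mice without MIA were analysed here.

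Endothelial cells line the vessels, and in the brain and spinal cord they are joined by tight junctions and carry transporters that control what passes from the blood. Pericytes sit on capillaries beneath a shared basement membrane and help to keep this barrier closed, while smooth muscle cells wrap arterioles and set their width. Receptors such as those for vascular endothelial growth factor (VEGF), angiopoietin and Notch ligands govern how these cells grow and stay attached to each other. Several of the genes are also used by other cells of the cord, such as Slc2a1 in astrocytes, Bsg in neurons and glia and Notch3 in astrocytes. In whole tissue, fewer vascular cells and less RNA per cell cannot be told apart.

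The coding sequences of 2 of these genes show how widely they differ in base composition. The late differences followed the GC content of the longest transcript, and were not set against that of the coding stretch shown. Each line holds the first 120 coding bases of the gene, 5′ to 3′, with G and C in capitals, read from GENCODE M21 (GRCm38). The genes were picked after their values were seen, as the mural gene with the largest late decrease and the barrier gene with the largest late increase.
Notch3: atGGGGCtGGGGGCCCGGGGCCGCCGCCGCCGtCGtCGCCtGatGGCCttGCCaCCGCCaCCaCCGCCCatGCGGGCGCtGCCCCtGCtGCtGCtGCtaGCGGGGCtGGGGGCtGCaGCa
Slco1a4: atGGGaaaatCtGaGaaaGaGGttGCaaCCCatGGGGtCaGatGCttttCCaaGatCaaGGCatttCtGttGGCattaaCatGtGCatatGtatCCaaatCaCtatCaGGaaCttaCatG
G and C made up 78.3% of this stretch in Notch3 (chr17:32120820-32166852, minus strand) and 40.8% in Slco1a4 (chr6:141805440-141856199, minus strand), where the positions are those of the whole gene. Over the longest transcript the values were 59.6% for Notch3 and 40.3% for Slco1a4, against a median of 49.7% over the 16213 tested genes with a known GC content.

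The vascular genes spanned a wide range of levels. Per kilobase of longest transcript, Bsg, a chaperone of transporters in the barrier endothelium and many other cells, was highest (mean 8.22 log2 CPM per kilobase, 7.90 to 8.70 over the 22 mice). It was followed by Itm2a, a membrane protein of endothelium (5.79), by Ly6c1 (5.40), and by the tight junction gene Cldn5 (5.03) and the phospholipid transfer gene Pltp (5.01). The range of Cldn5 (4.51 to 5.62) lay within that of Pltp (4.20 to 5.74). The glucose transporter gene Slc2a1 (4.62) and the organic anion transporter gene Slco1a4 (4.12) lay above the pan-endothelial adhesion gene Pecam1 (2.99) and the VEGF receptor genes Flt1 (3.04) and Kdr (1.67). Among mural genes Myl9 (3.54) and Tagln (2.77), both of the contractile apparatus, exceeded the pericyte genes Rgs5 (2.09), Pdgfrb (1.68) and Notch3 (0.68), while the third smooth muscle gene, Acta2 (1.91), lay below Rgs5. The transcription factor gene Sox17 (-0.17) and the aminopeptidase gene Anpep (-0.50) were lowest. Counting error weighs most on genes with few reads, such as Higd1b (6 to 73 reads per library) and Anpep (18 to 85), and on single libraries with few reads of Sox17 (lowest 8) and Sox18 (lowest 7, in Late SAFit2 replicate 5).

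**Figure D1:**
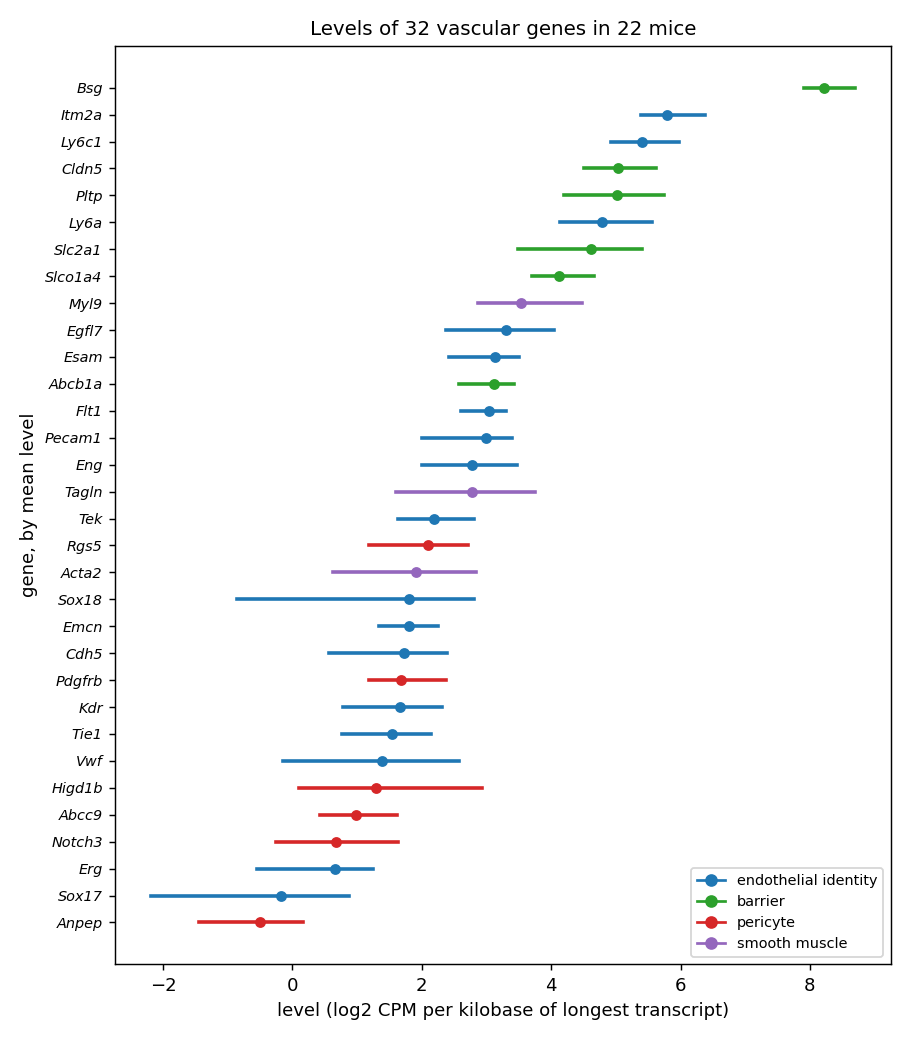
Mean level (point) and range over the 22 mice (line) of each gene, as log2 CPM per kilobase of longest transcript, coloured by role. Bsg, at 8.22, stands above the other genes, and Sox18 has the widest range (-0.85 to 2.81).

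Mice of 1 group differed least in barrier genes and most in smooth muscle genes. The median within-group SD, on the log2 CPM scale, was 0.26 for barrier genes, 0.31 for endothelial identity genes, 0.40 for pericyte genes and 0.55 for smooth muscle genes, against 0.32 over all tested genes. Abcb1a, the drug efflux pump P-glycoprotein, and Bsg had the lowest SD (0.19 each), and Sox18 (0.68), Sox17 (0.66) and Acta2 (0.62) the highest. Deviations of single mice from their group mean were only weakly shared. Their median correlation over the 22 mice, which share library and depth, was 0.18 over the 136 pairs of endothelial identity genes, 0.22 over the 15 barrier pairs, -0.09 over the 15 pericyte pairs and 0.39 over the 3 smooth muscle pairs, against 0.00 over pairs of all tested genes. After correction for GC content and length the medians were 0.13, 0.00, -0.11 and 0.29 in the same order, against 0.01 over all genes. The median within the barrier genes was thus gone. Single barrier pairs still ranged from -0.53 (Abcb1a with Bsg) to 0.73 (Cldn5 with Bsg, and Slc2a1 with Abcb1a) after the correction. Over the 102 pairs of an endothelial identity gene with a barrier gene, the median was 0.23 before and 0.22 after the correction.

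Depth was 11352989 to 24433349 reads on genes per library. The shallowest were Late SAFit2 replicates 4 and 5 (11352989 and 11503386 reads), and Late SAFit2 libraries held from 11352989 to 20242724 reads against 13862129 to 23197524 in Late Vehicle. In marker lists of the vascular cells, the late groups overlapped in summed level, at 182 to 238 CPM in Late SAFit2 and 199 to 276 CPM in Late Vehicle for the 8 endothelial markers, and at 86.7 to 99.2 and 88.0 to 120 CPM for the 7 mural markers. No vascular marker was at 0 in any library. The 4 red cell markers in the table, a measure of blood left in the vessels, summed to 342 to 917 CPM in Late SAFit2 and 494 to 914 CPM in Late Vehicle mice, and none passed the late test. Of the 4 ependymal markers 2 passed, both lower in Late SAFit2 mice (median over the 4 log2 fold change -0.82, and -0.71 after correction for GC content and length, when none passed). They summed to 17.4 to 41.8 CPM against 30.3 to 60.4 CPM in Late Vehicle mice, with Ccdc153 and Tmem212 at 0 in some Late SAFit2 libraries, and their part in the late differences of vascular genes was not tested.

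Late SAFit2 treatment was compared with Late Vehicle to ask which vascular genes differed at day 30 when the inhibitor was given once pain was established. Of the 32 genes, 5 passed the test, all lower in Late SAFit2 mice. Passing required an adjusted p under 0.05 with at least a 1.2-fold difference (limma, Benjamini-Hochberg adjusted over all tested genes). They were the mural receptor gene Notch3, the endothelial transcription factor gene Sox18, the barrier genes Pltp and Cldn5, and Egfl7, which encodes a secreted protein of endothelium. Over all tested genes 12.1% passed, 5.33% higher and 6.72% lower. By role these were 2 of 17 endothelial identity genes, 2 of 6 barrier genes, 1 of 6 pericyte genes and 0 of 3 smooth muscle genes. The median log2 fold change over the 32 genes was -0.22, with 20 below 0, against -0.05 over all tested genes. It was -0.14 for endothelial identity genes, -0.36 for barrier genes, -0.18 for pericyte genes and -0.26 for smooth muscle genes. After correction for GC content and transcript length these medians were -0.04, -0.02, -0.15 and 0.07, the last with its sign turned. At a nominal p under 0.05, 3 of the 32 were higher and 10 lower, and 34.5% of all tested genes reached that level. For none of the 32 did the 2 late groups fail to overlap, as they did for 1.71% of all tested genes.

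The call of these 5 genes depended on settings. Shares of all tested genes under each setting are not given here, so this dependence is not shown to be particular to vascular genes. None passed after correction for GC content and transcript length, without the variance trend, in a fit of the late mice alone, or without Late SAFit2 replicates 4 and 5, and none passed when any 1 of Late Vehicle replicates 1, 3, 4 and 5 or Late SAFit2 replicates 2, 4 and 5 was left out, whereas 11 passed without Late Vehicle replicate 6. With libraries centred on their medians 5 passed as well, of which 2 were higher (Slco1a4 and Ly6a) and 3 lower (Notch3, Pltp and Sox18).

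**Figure D2:**
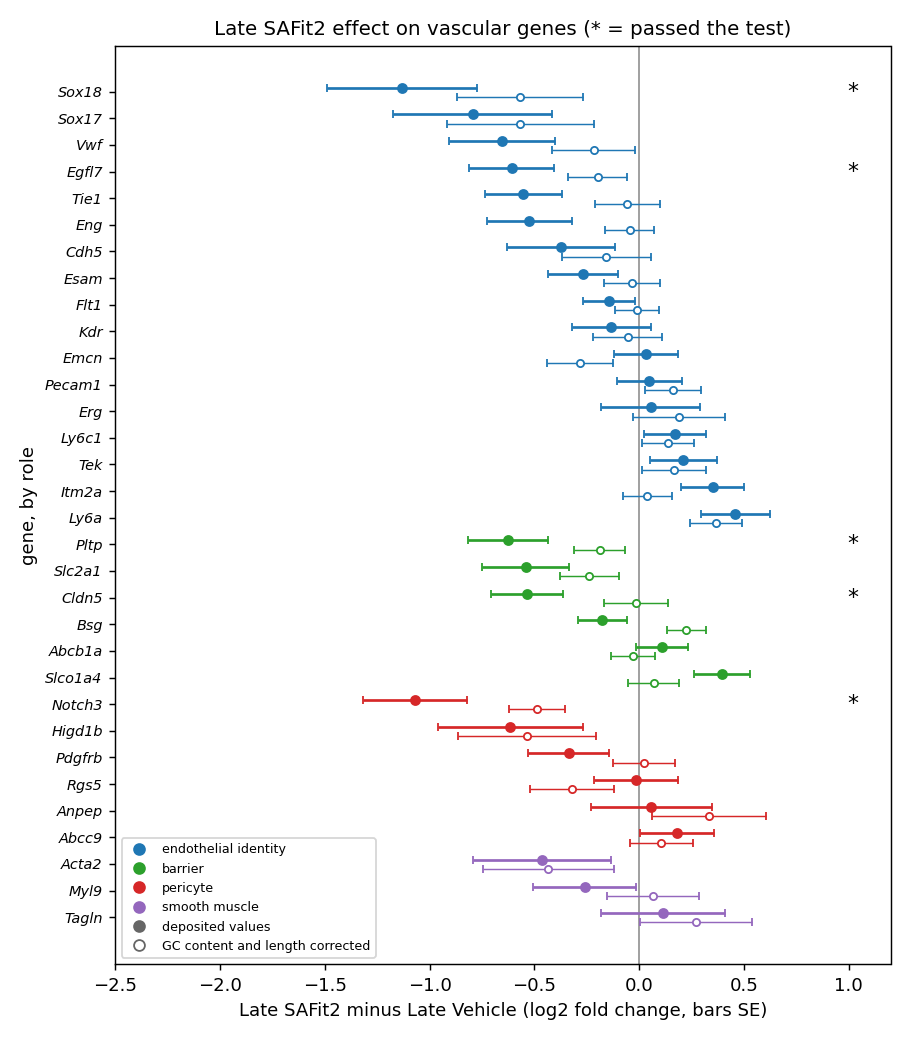
Late SAFit2 minus Late Vehicle, as log2 fold change with SE, for each of the 32 genes by role, from the deposited values (filled) and after correction for GC content and length (open). Stars mark the 5 genes that passed the test, all below 0 (-1.13 for Sox18 to -0.54 for Cldn5), and none passed after the correction.

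Notch3, the Notch receptor of pericytes and smooth muscle, had the lowest adjusted p. It was at 3.49, 3.04, 2.97, 2.75 and 2.93 log2 CPM in Late SAFit2 replicates 1 to 5, and at 3.13 (lowest), 4.32 (median) and 4.64 (highest) in Late Vehicle mice. Late SAFit2 replicate 1 lay above the lowest Late Vehicle mouse, replicate 6, and the other 4 lay below all Late Vehicle mice. The log2 fold change was -1.07 (SE 0.249, adjusted p 0.0324, limma), and the two-sided exact permutation p over 462 splits was 0.0087 (n = 5 and 6).

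Sox18, a transcription factor of endothelial identity, was at 2.61, 2.06, 2.58, 1.85 and -0.15 log2 CPM in Late SAFit2 replicates 1 to 5, and at 2.13, 2.98 and 3.51 (lowest, median and highest) in Late Vehicle mice. Replicate 5 stood far below the rest, with 7 reads. The log2 fold change was -1.13 (SE 0.358, adjusted p 0.0442, limma) and the exact permutation p 0.028. Without that mouse it was -0.65 and did not pass. Its relative Sox17 was at 0.65 to 1.65 log2 CPM in Late SAFit2 and 1.40 to 2.58 in Late Vehicle mice. It did not pass (log2 fold change -0.79, adjusted p 0.139, limma; exact permutation p 0.019).

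Cldn5, the main claudin of the barrier's tight junctions, was at 5.57, 5.20, 5.02, 5.05 and 5.10 log2 CPM in Late SAFit2 replicates 1 to 5, and at 5.20, 5.70 and 6.12 (lowest, median and highest) in Late Vehicle mice. Every Late SAFit2 mouse lay below the Late Vehicle mean, and 3 of the 5 lay below all Late Vehicle mice. The log2 fold change was -0.54 (SE 0.171, adjusted p 0.0453, limma), with an exact permutation p of 0.019.

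Pltp was at 6.59, 5.76, 6.17, 5.80 and 5.52 log2 CPM in Late SAFit2 replicates 1 to 5, and at 6.20, 6.70 and 6.89 (lowest, median and highest) in Late Vehicle mice. Replicate 1 lay among the Late Vehicle mice and the other 4 lay below all of them. The log2 fold change was -0.63 (SE 0.191, adjusted p 0.0407, limma), with an exact permutation p of 0.017.

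Egfl7 was at 3.79, 3.27, 3.75, 3.64 and 3.68 log2 CPM in Late SAFit2 replicates 1 to 5, and at 3.64, 4.29 and 4.64 (lowest, median and highest) in Late Vehicle mice. The lower end of Late Vehicle reached into the Late SAFit2 range. The log2 fold change was -0.61 (SE 0.203) at an adjusted p of 0.0499, which is at the threshold (limma), and the exact permutation p was 0.022.

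**Figure D3:**
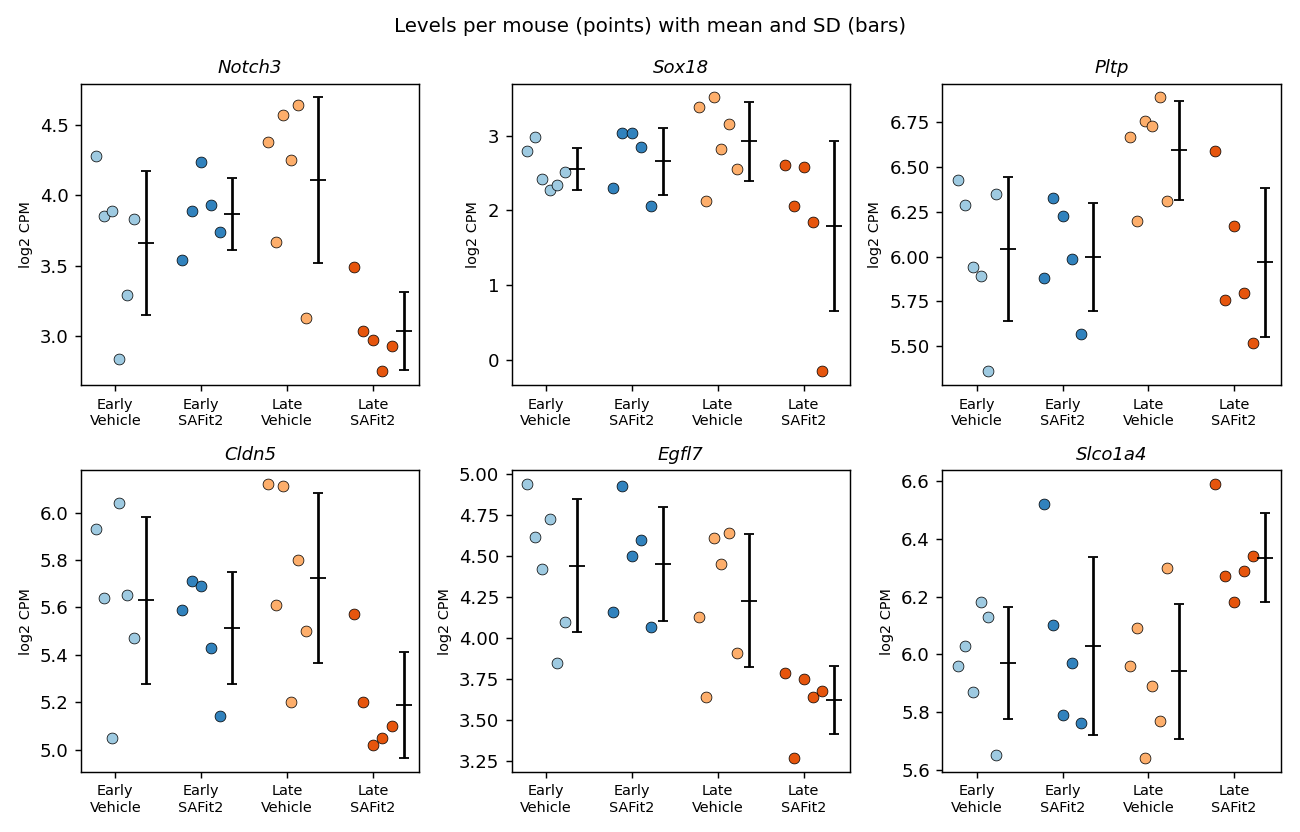
Level of 6 genes in each mouse (points, log2 CPM) with the mean and SD of each group (bars). The first 5 panels show the genes that passed in the late comparison, and the last shows Slco1a4, which missed it at an adjusted p of 0.0512 (limma) with values of 6.18 to 6.59 in Late SAFit2 mice.

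Just outside the threshold lay genes of both directions. Tie1, an angiopoietin co-receptor gene of endothelium, had a log2 fold change of -0.55 (adjusted p 0.0503, limma), next to Egfl7 inside it. Slco1a4 was at 6.59, 6.27, 6.18, 6.29 and 6.34 log2 CPM in Late SAFit2 replicates 1 to 5 and at 5.64, 5.92 and 6.30 (lowest, median and highest) in Late Vehicle mice. All Late SAFit2 mice lay above the Late Vehicle mean, with a log2 fold change of 0.40 (adjusted p 0.0512, limma; exact permutation p 0.013). Ly6a, the surface antigen Sca-1 of endothelium, was at 5.40, 4.87, 5.50, 4.92 and 5.16 log2 CPM in Late SAFit2 replicates 1 to 5 and at 4.20, 4.65 and 5.19 in Late Vehicle mice. Only 2 of the 5 Late SAFit2 mice exceeded all Late Vehicle mice (log2 fold change 0.46, adjusted p 0.0587, limma; exact permutation p 0.052). Slc2a1 had a log2 fold change of -0.54 (adjusted p 0.0747, limma), at 5.92 to 6.41 log2 CPM in Late SAFit2 and 5.90 to 7.11 in Late Vehicle mice. Vwf, the clotting factor stored in endothelium, had -0.66 (adjusted p 0.0739), Eng, a co-receptor for transforming growth factor beta, -0.52 (adjusted p 0.0763), and Itm2a 0.35 (adjusted p 0.101). Exact permutation p were 0.0087 for Vwf, 0.026 for Tie1, 0.056 for Slc2a1, 0.058 for Eng and 0.071 for Itm2a. Reads of Ly6a, Ly6c1, Abcb1a and Slco1a4, which have close relatives in the genome, may have been split between copies by the counting.

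Other pan-endothelial genes did not pass. Pecam1 was at 4.69 to 5.18 log2 CPM in Late SAFit2 and 4.75 to 5.16 in Late Vehicle mice (log2 fold change 0.05, SE 0.156, adjusted p 0.846, limma). Flt1 had a log2 fold change of -0.14 (SE 0.124, adjusted p 0.419) and Kdr of -0.13 (SE 0.187, adjusted p 0.646). Tek, the angiopoietin receptor, had 0.21 (adjusted p 0.353, limma; exact permutation p 0.3). Cdh5, the cadherin of endothelial junctions, had -0.37 (adjusted p 0.309, limma; exact permutation p 0.013). All 5 Late SAFit2 mice lay below the Late Vehicle mean of Cdh5. Its SD was 0.19 in Late SAFit2, 0.21 in Late Vehicle and 0.8 in Early Vehicle mice. The limma fit used the spread of all 4 groups, but Cdh5 did not pass in a fit of the late mice alone either. The correction for GC and length brought Cdh5 to -0.16 (adjusted p 0.768, limma). Why Cdh5 did not pass was not tested. On the deposited values, log2 fold changes of Emcn, Erg and Ly6c1 lay between 0.03 and 0.17, and that of Esam was -0.27. Of the barrier genes, Abcb1a (0.11) and Bsg (-0.18) did not pass either.

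Apart from Notch3 no mural gene passed. Pdgfrb, the receptor through which endothelium recruits pericytes, was at 3.62 to 4.04 log2 CPM in Late SAFit2 and 3.80 to 4.63 in Late Vehicle mice (log2 fold change -0.34, SE 0.193, adjusted p 0.215, limma). Rgs5, a regulator of G protein signalling in pericytes, had a log2 fold change of -0.02 (SE 0.200, adjusted p 0.962). Abcc9, a subunit of the vascular potassium channel, had 0.18, Anpep 0.06 and Higd1b -0.61 (adjusted p 0.484, 0.903 and 0.207). Exact permutation p in the same order were 0.36, 0.86 and 0.022. Acta2, smooth muscle actin, was at 3.56, 2.48, 3.57, 2.49 and 1.65 log2 CPM in Late SAFit2 replicates 1 to 5 and at 2.32 to 3.69 in Late Vehicle mice (log2 fold change -0.47, SE 0.330, adjusted p 0.321). Tagln had 0.11 (SE 0.295, adjusted p 0.810) and Myl9 -0.26 (SE 0.246, adjusted p 0.470). The 5 skeletal muscle markers in the table summed to 2.30 to 196 CPM in Late SAFit2 and 1.68 to 4.24 in Late Vehicle mice, with 1 of the 5 higher at the threshold and Ckm and Myh4 at 0 in some libraries of both. The 7 meningeal fibroblast markers summed to 56.1 to 618 and 155 to 260 CPM, with none passing or at 0. Their part in the spread of the smooth muscle genes was not tested.

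The late differences of the vascular genes followed the GC content of their transcripts. Over the 32 genes, which share the same libraries, the log2 fold change correlated with transcript GC content at a Pearson r of -0.77 and a Spearman rho of -0.76. Of the 16 genes above the median GC content of 52.4%, 14 were below 0, with a median of -0.54. Of the other 16, 6 were below 0, with a median of 0.05. Over all tested genes, the median GC content was 57.7% for the 1115 lower and 41.5% for the 869 higher genes with a known value, so the trend was shared with the rest of the transcriptome. After each library's trend on GC content and length was removed, r was -0.19 and rho -0.22, and the median log2 fold change of the 32 genes was -0.03, against 0.03 over all genes.

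**Figure D4:**
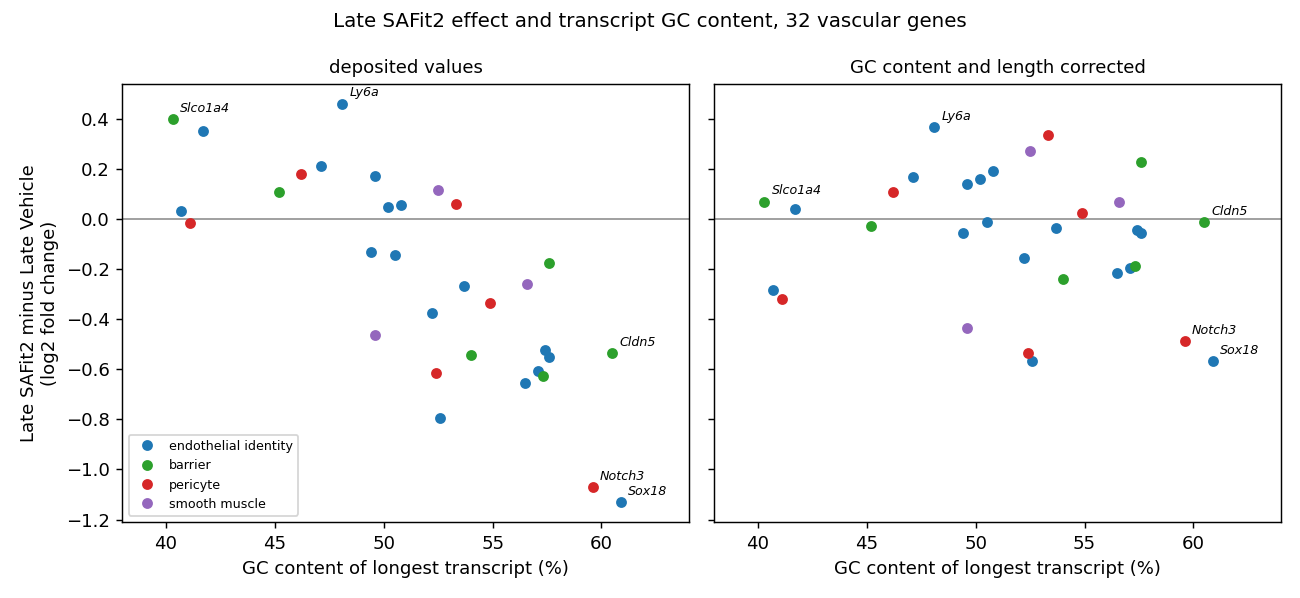
Late SAFit2 minus Late Vehicle (log2 fold change) of each of the 32 genes against the GC content of its longest transcript (%), from the deposited values (left) and after correction for GC content and length (right). The slope on the left (r = -0.77) is mostly gone on the right (r = -0.19). On the right 11 of the 16 genes above the median GC content and 8 of the other 16 lie below 0, Notch3 and Sox18 among them.

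The GC slope of each library is the change of log2 CPM relative to the mean library per 10 points of GC content. In the late mice it was mostly lower with SAFit2 than with Vehicle, but the ranges overlapped and the difference was not tested. The slope was -0.475 to -0.053 (median -0.33) in Late SAFit2 and -0.321 to 0.49 (median 0.30) in Late Vehicle libraries. In Early SAFit2 libraries it was -0.165 to 0.261, and in Early Vehicle libraries -0.236 to 0.311. The 4 Late Vehicle libraries with slopes of 0.255 to 0.49 (replicates 1, 3, 4 and 5) held Notch3 at 4.25 to 4.64 log2 CPM. Replicates 2 and 6, with slopes of -0.163 and -0.321, held it at 3.67 and 3.13. The correction would also remove an effect of SAFit2 that acted along GC content, so that such an effect and a trend of the libraries cannot be told apart.

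**Figure D5:**
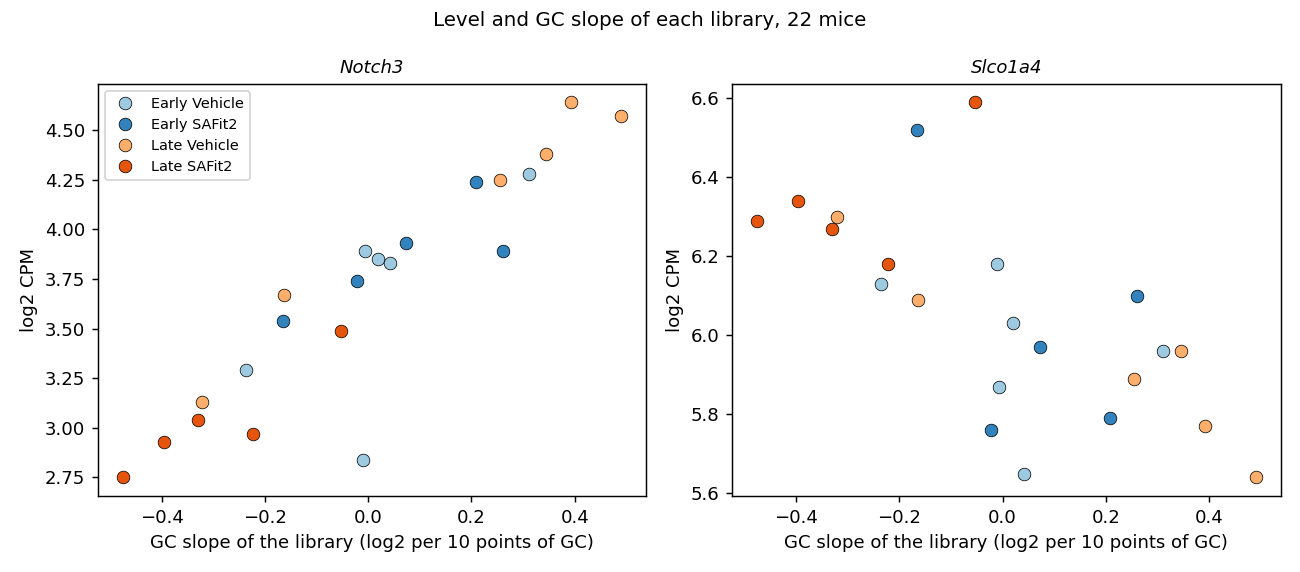
Level of Notch3 and Slco1a4 (log2 CPM) in each of the 22 libraries against the GC slope of that library (log2 per 10 points of GC content). Notch3 is high where the slope is high and Slco1a4 tends the other way, and Late Vehicle replicates 2 and 6 lie near the Late SAFit2 libraries.

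After the correction 0 of the 32 genes passed, as did 0 of all 16213 genes. At a nominal p under 0.05 there were 3, Notch3 and Ly6a, which had reached it before the correction, and Bsg, which had not, whereas 16% of all genes reached it. Notch3 was lower, with a log2 fold change of -0.49 (adjusted p 0.115, limma), at 3.30 to 3.75 log2 CPM in Late SAFit2 and 3.65 to 4.23 in Late Vehicle mice. Ly6a was higher by 0.37 (adjusted p 0.167) and Bsg by 0.23 (adjusted p 0.240), the latter opposite in sign to its deposited value. The value of Cldn5 came to -0.01 and those of Pltp and Egfl7 to -0.19 and -0.20, while Sox18 and Sox17 were both at -0.57 (adjusted p 0.349 and 0.436). Of the genes just outside the threshold, Slco1a4 came to 0.07 (adjusted p 0.824), Tie1 to -0.06 (adjusted p 0.896), Eng to -0.04 (adjusted p 0.892), Itm2a to 0.04, Vwf to -0.22 and Slc2a1 to -0.24.

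Early SAFit2 treatment, which addressed whether treatment around the onset of pain left a mark at day 30, gave no vascular gene past the threshold. In this comparison 0 of 32 passed, as did 0% of all tested genes (limma), and 0 of the 32 reached a nominal p under 0.05, which 2.48% of all genes did. Early groups overlapped for all 32 genes, and did not for 0.352% of all genes. The median log2 fold change was 0.01 and the range -0.21 to 0.40. The 3 lowest p belonged to Pecam1, Acta2 and Ly6a, none of which passed. Pecam1 was at 4.75, 4.89, 4.74, 4.80 and 4.44 log2 CPM in Early SAFit2 replicates 1 to 5 and at 3.78, 4.56 and 4.85 (lowest, median and highest) in Early Vehicle mice. Its log2 fold change was 0.27 (SE 0.156, unadjusted limma p 0.101, exact permutation p 0.23). Acta2 had 0.40 (SE 0.330) and Ly6a -0.19 (SE 0.164). Genes that passed in the late comparison had early log2 fold changes of 0.21 (Notch3), 0.10 (Sox18), -0.12 (Cldn5), -0.04 (Pltp) and 0.01 (Egfl7).

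The early and late effects were also compared directly. Of the 32 genes 0 differed at an adjusted p under 0.05, and 0% of all tested genes did (limma). The lowest p were those of Notch3, with an early minus late difference of 1.28 (SE 0.352, adjusted p 0.120), Ly6a, with -0.65 (SE 0.231, adjusted p 0.122), and Sox18, with 1.23 (SE 0.506, adjusted p 0.144). The late decrease of Notch3 was thus not shown to differ from its early value.

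Averaged over both timings, 7 of the 32 genes had a nominal p under 0.05 for SAFit2 against Vehicle, 1 higher and 6 lower. Over all tested genes 13.2% did, 6.03% higher and 7.18% lower. Lower were Notch3 (log2 fold change -0.43), Vwf (-0.43), Pltp (-0.34), Cldn5 (-0.33), Egfl7 (-0.30) and Tie1 (-0.29), and higher was Slco1a4 (0.23). None had an adjusted p under 0.05 (lowest 0.330 for Cldn5, limma). In each of these 7 genes the late log2 fold change was larger in size than the early one. After correction for GC content and length 2 genes had a nominal p under 0.05, beside 8.45% of all genes. They were Notch3 (-0.21), which was among the 7, and Pecam1 (0.22), which was not.

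Late Vehicle mice were compared with Early Vehicle mice as the level without the inhibitor. Of the 32 genes 2 passed, both higher in Late Vehicle mice, and 9.11% of all tested genes passed. Pecam1 was at 4.75, 4.93 and 5.16 log2 CPM (lowest, median and highest) in Late Vehicle and 3.78, 4.56 and 4.85 in Early Vehicle mice (log2 fold change 0.48, SE 0.148, adjusted p 0.0403, limma; exact permutation p 0.015). Slc2a1 was at 5.90, 6.95 and 7.11 in Late Vehicle and 5.19, 6.33 and 6.52 in Early Vehicle mice (log2 fold change 0.63, SE 0.199, adjusted p 0.0468, limma; exact permutation p 0.041). Both Vehicle groups overlapped for both genes. Pltp (0.55, adjusted p 0.0559) and Bsg (0.27, adjusted p 0.134) did not pass. After correction for GC content and length 4 passed, all higher in Late Vehicle mice, beside 18.3% of all genes. They were Slc2a1 (0.62, adjusted p 0.00197, limma), Pltp (0.51, adjusted p 0.0029), Pecam1 (0.51, adjusted p 0.006) and Notch3 (0.43, adjusted p 0.0177). Corrected Pltp was at 6.36 to 6.62 log2 CPM in Late Vehicle and 5.52 to 6.27 in Early Vehicle mice, and corrected Notch3 at 3.65 to 4.23 and 3.10 to 3.69. On the deposited values neither Pecam1 nor Slc2a1 passed in a fit of the Vehicle mice alone or without the variance trend. Timing of the gel and batch cannot be told apart in this comparison.

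Further vessel genes in 4 lists were read beside these in the late comparison. Of 26 angiogenic signals and receptors 4 passed (1 higher, 3 lower), with a median log2 fold change of -0.18. Over all tested genes 12.1% passed, and the shares of this list and the next were near that. Lower were the Notch ligand gene Jag2 (-1.11, adjusted p 0.0324, limma), the receptor gene Notch1 (-0.85, adjusted p 0.0341) and the growth factor gene Vegfb (-0.60, adjusted p 0.0462), and higher was the VEGF co-receptor gene Nrp1 (0.48, adjusted p 0.0496). Of 25 further barrier and transport genes 2 passed, with a median of -0.09. Tspan12, a co-receptor of the Norrin and Wnt signal that maintains the barrier, was higher (0.73, adjusted p 0.0324), and Plvap, a protein of fenestrated and leaky endothelium, lower (-0.77, adjusted p 0.0427). Of 17 further mural genes 0 passed, with the proteoglycan gene Cspg4 (-0.53, adjusted p 0.0728) and Smtn (-0.78, adjusted p 0.141) nearest. Of the 9 leukocyte adhesion genes tested, of 11 listed, 0 passed, with Vcam1 (0.33, adjusted p 0.0739) and Selplg (-0.48, adjusted p 0.159) nearest. After correction for GC content and length none of these genes passed, and the medians were 0.07, 0.05, 0.18 and -0.02 in the order of the lists above. In early mice none of the 4 lists had a gene that passed.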

How the data were processed

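RNA of L4 to L6 spinal cord from 22 mice was sequenced, and samples were grouped by their treatment and batch labels. According to the methods and the submitters' processing notes, the authors trimmed reads (Trimmomatic), aligned them to mm10 (HISAT2), counted them per gene with featureCounts and normalised the libraries by trimmed mean of M-values (edgeR). The values deposited by the authors are log2 CPM of 17306 genes, and genes at 0 reads share a floor of -3.154, so a small prior count had been added. Log2 fold changes therefore come out too small in genes of few reads. Reads worked back from the values were whole in 100.0% of cases (tolerance 0.02 reads) and gave a depth of 11352989 to 24433349 reads on genes.

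Differences were tested with limma 3.58.1 in R 4.3.3 from the deposited values (a mean for each of the 4 groups, variance trend on expression), with Benjamini-Hochberg adjustment over the 16765 genes whose log2 CPM reached -1 in at least 5 libraries. A gene passed at an adjusted p under 0.05 if it also differed by 1.2-fold. For the mean of both timings a nominal p under 0.05 was used, and for the early minus late difference an adjusted p under 0.05. The limma fit of the late comparison was first tested on simulated counts with known changes in Late SAFit2. The simulation held no GC trend between libraries and did not cover the correction or the permutations. For single genes a two-sided exact permutation of mice was added, unadjusted. The labels do not give sex per mouse, while a legend in the paper's supplement, on gait after early or late SAFit2, names male mice. The p-values set differences of group means against the spread between these mice.

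GC content and length of the longest GENCODE M21 transcript were known for 16699 genes (96.5%). The correction subtracted the loess trend (span 0.5) of log2 CPM on both, fitted within each library relative to the mean of all libraries, for 16213 tested genes.

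The 32 genes, their division by role and the further lists were chosen with earlier results of these data known. Described in full are Pecam1, Cldn5, Flt1, Kdr, Slc2a1, Slco1a4, Pdgfrb, Rgs5, Acta2 and Tagln, genes that passed, and the 3 lowest p where none passed. Of each further list, up to 3 passing genes per direction are named, or the 2 of lowest p. Alternatives were no filter or a filter at log2 CPM of 1, pseudocounts of 0.5 and 2, quantile normalization, median centring, weights for library quality, robust estimation, no variance trend, only the groups compared, a block for replicate number, correction for GC and length with and without this block, limma voom on the recovered reads and leaving out each library. Added after seeing the data were the genes with a GC content without correction, and leaving out the 2 shallowest libraries. Tables and plots were made in Python 3.11.15 with numpy 2.4.6, pandas 2.3.3, scipy 1.17.1 and matplotlib 3.10.9.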

Additional observations from a re-analysis of the deposited data

Results flagged for a closer look

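Of 128 sets of mice (32 genes in 4 groups), 10 held a mouse that lay far from the rest of its group by Dixon's criterion. Chance alone gives about 1 in 20. Early Vehicle replicate 5 was lowest for Kdr (3.35 log2 CPM, next 4.10) and Erg (1.15, next 2.11), and Early Vehicle replicate 4 was lowest for Sox17 (-0.49, next 1.5). Late SAFit2 replicate 3 was lowest for Cdh5 (3.28, next 3.64), Late SAFit2 replicate 2 lowest for Tagln (2.28, next 3.58) and Late SAFit2 replicate 1 highest for Bsg (9.22, next 8.79). Late SAFit2 replicate 5 was lowest for Sox18 (-0.15, next 1.85) and highest for Myl9 (4.61, next 3.5). Late Vehicle replicate 6 was highest for Abcc9 (4.30, next 3.86) and lowest for Acta2 (2.32, next 3.21).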

How the results depend on the processing

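The count of 5 vascular genes in the late comparison was 0 without a variance trend, 0 in the compared groups only, 0 with GC content and length correction, 0 with that correction and the replicate block, 0 without the 2 shallowest libraries, 1 with voom, 2 with quantile normalization, 12 with the replicate block and 13 with library quality weights. Leaving out each mouse in turn gave 0 to 11. It gave 0 without any of Late Vehicle replicates 1, 3, 4 and 5 or Late SAFit2 replicates 2, 4 and 5, 1 without Early SAFit2 replicate 4, 2 without Early Vehicle replicate 2 or 6, 3 without Early Vehicle replicate 3 or Late SAFit2 replicate 3, 8 without Early Vehicle replicate 5, 10 without Late Vehicle replicate 2 and 11 without Late Vehicle replicate 6. Cldn5 turned to 0.039 with the correction and the block together. For the mean of both timings, the count of 7 became 16 with quality weights, 2 with the correction (alone or with the block) and 4 without the shallow libraries, and was 4 to 11 when single mice were left out (4 without Early SAFit2 replicate 1 or Early Vehicle replicate 1, 11 without Late Vehicle replicate 6). For early minus late, the count of 0 became 6 with quality weights and 2 with the block, and was 0 to 3 over single mice left out (3 without Late Vehicle replicate 6). For Late against Early Vehicle, the count of 2 became 0 without a trend or in the compared groups only, 1 with quantile normalization, 4 with median centring or the correction and 8 with quality weights, and was 0 to 4 over single mice left out. It was 0 without Early Vehicle replicate 4 or 5 or Late Vehicle replicate 1, 4 or 5, and 4 without Late Vehicle replicate 6. The early count was 0 throughout. Causes of these changes were not tested. Counts over all tested genes under each setting are not given beside these, so the changes are not shown to be particular to vascular genes. Fits that leave out mice have smaller samples, and the part of this was not tested either. Correlations of same-numbered mice ranged from -0.236 to 0.317, with 2 of 10 over 0.1. Values of differently numbered mice are not given beside them, so they cannot show whether replicate numbers pair the mice. The block could not be fitted to the Vehicle comparison. Depth limits genes with few reads, such as Higd1b and Anpep.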
